A study of Mus musculus with 16 samples.

Results

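The collagen genes of the mouse dentate gyrus were taken as every gene name in the deposited abundance tables that begins with Col, a number, a and a further number. The pattern matched 45 of 24421 gene names, each on a single row in every library. Of these, 44 encode collagen chains, and 1, Col4a3bp, encodes the ceramide transfer protein and carries the name only because its product binds a type IV collagen chain, so it is given apart. The collagens comprise 11 fibrillar genes, 8 of the basement membrane (types IV, XV and XVIII) and 25 of other types. The filter on low values (a mean of at least 0.1 TPM over the 16 libraries) was passed by 40 of the 44: 10 fibrillar, 7 basement membrane and 23 other genes. Col10a1, Col4a3, Col17a1 and Col24a1 lay below it and were not tested.

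The study asked how deletion of p16Ink4a, a cyclin-dependent kinase inhibitor, and voluntary running change the transcriptome of the aged dentate gyrus. All mice were male, C57BL/6 and 1 year old, and each of 4 groups was measured in 4 libraries, each pooled from the dentate gyri of 2 mice. The groups were wild-type mice kept sedentary (labelled p16 WT CTL and called sedentary WT, replicates 1 to 4), p16Ink4a knockout mice kept sedentary (labelled p16 KO CTL, sedentary KO, replicates 5 to 8), wild-type mice given a running wheel for 12 days (labelled p16 WT RUN, WT runners, replicates 9 to 12) and knockout mice given the same wheel (labelled p16 KO RUN, KO runners, replicates 13 to 16). The knockout is constitutive, spares p19Arf, and was made in FVB mice and crossed into C57BL/6. Levels are in TPM, the abundance of a transcript scaled by its length and by the total of the library, so that levels of different genes may be compared. Comparisons keep the letters of the study: Set A sets KO runners against sedentary KO mice, Set B sedentary KO against sedentary WT mice, Set C WT runners against sedentary WT mice and Set E KO runners against WT runners, and the interaction is the difference between Set A and Set C. A gene is called higher or lower at an unadjusted p under 0.05, the threshold of the study, in limma on log2 (scaled TPM + 0.1), and adjusted p-values cover all 17317 genes tested. Set B shares its libraries of sedentary KO mice with Set A and those of sedentary WT mice with Set C, and Set E shares its runners with Sets A and C.

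Collagens are extracellular proteins of 3 chains wound into a triple helix. Fibrillar collagens pack into banded fibrils, and FACIT collagens (fibril-associated collagens with interrupted triple helices) sit on the surface of such fibrils. Type IV collagen forms the sheet-like network of basement membranes, to which types XV and XVIII are attached, and type VI forms beaded filaments beside it. Transmembrane collagens are anchored in the plasma membrane and can be shed. In brain, fibrillar collagens are largely confined to meninges and large vessels, basement membrane collagens surround capillaries, and neurons make several of the transmembrane and FACIT collagens. In bulk tissue, fewer cells of a type and less RNA per cell cannot be told apart.

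Col25a1 had the highest mean level of the collagens. Col25a1, a transmembrane collagen whose shed ectodomain is found in amyloid plaques, had a mean of 36.5 TPM over the 16 libraries and made up 19.8% of all collagen TPM. It was followed by Col4a2 (24.6 TPM), Col6a1 (20.6 TPM), Col4a1 (18.5 TPM) and Col11a2 (13.1 TPM), the only others whose mean reached 10 TPM. Means between 1 and 10 TPM were found for 22 genes and means under 1 TPM for 17. The classic interstitial collagens were low: Col1a1 and Col1a2, the chains of type I, had means of 1.73 and 1.77 TPM, and Col3a1, the chain of type III in vessel walls, 0.269 TPM. Summed over its members, the basement membrane class had 48.1 TPM, of which Col4a2 and Col4a1 made up 89.8%. The fibrillar class had 29.8 TPM, of which Col11a2 made up 44%, and the other types had 106.4 TPM.

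**Figure D1:**
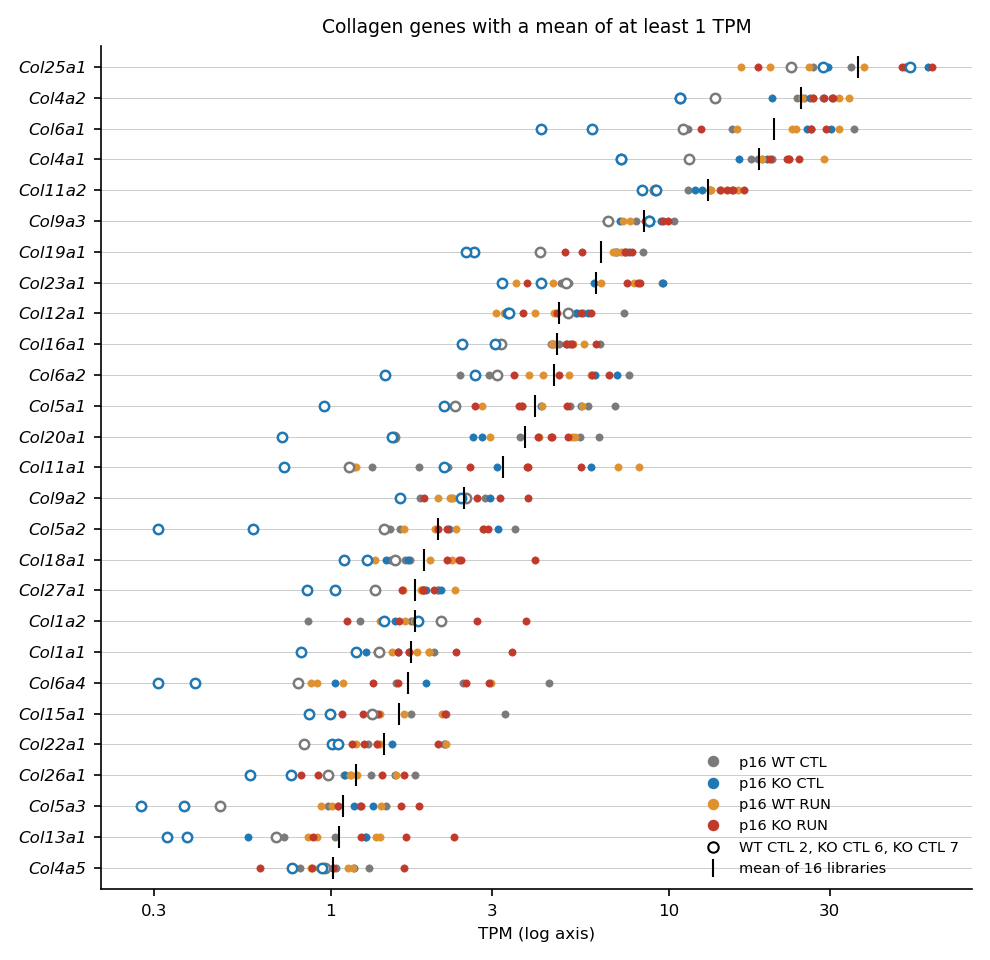
TPM of the 27 collagen genes whose mean reached 1 TPM, on a log axis. Each point is 1 of 16 libraries, coloured by group, the black tick is the mean of the 16, and open circles are sedentary WT replicate 2 and sedentary KO replicates 6 and 7, which lie at the left of most rows.

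A set of 3 sedentary libraries stood apart in most collagens, and this comes before the comparisons because it enters each of them except Set E. In 12 of the 27 genes whose mean reached 1 TPM, the 3 lowest of the 16 libraries were exactly sedentary WT replicate 2 and sedentary KO replicates 6 and 7. In 8 more genes 2 of the 3 lowest were among them, in 5 genes 1, and in 2 (Col1a2 and Col25a1) none. The same count was not made over all genes, so whether this is particular to collagens is not known. Their summed basement membrane collagens were 29.4, 21.5 and 21.1 TPM, against 40.8 to 68.3 TPM in the other 13 libraries. Their summed fibrillar collagens were 20.7, 15.9 and 17.2 TPM, against 27.8 to 38.4 TPM.

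The 3 libraries were picked by a low level of RNAs that are kept in the nucleus, and they were also low in endothelial genes. The summed level of 7 nuclear-retained long noncoding RNAs (Malat1, Neat1, Meg3, Miat, Rian, Mirg and Snhg11) was 976, 540 and 479 TPM in them, against 1825 to 2529 TPM elsewhere. The rule was a sum under 0.5 of that of the median library, so this low level is the ground of choice and not a separate finding. The summed level of 10 endothelial markers was 112, 79.4 and 80.4 TPM, against 137 to 197 TPM. The summed level of 10 choroid plexus markers was high in sedentary KO replicate 7, at 216 TPM, where the other 15 libraries had 18.2 to 65.0 TPM. Most of that sum was a single marker, Ttr, which reached 190.8 TPM in sedentary KO. The share of these differences in the collagen results was not tested. The collagen genes called in Sets A, B and C and in the interaction, and the counts of the other gene lists, are therefore also given without the 3 libraries, an alternative chosen after seeing the data, which leaves 2 libraries in sedentary KO and 3 in sedentary WT. Of these 2, sedentary KO replicate 8 had the lowest summed level of 6 dentate granule neuron markers of all 16 libraries (586 TPM) and the highest of 8 markers of CA1 to CA3 pyramidal neurons (575 TPM), so the calls made without the low libraries rest in part on it.

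**Figure D2:**
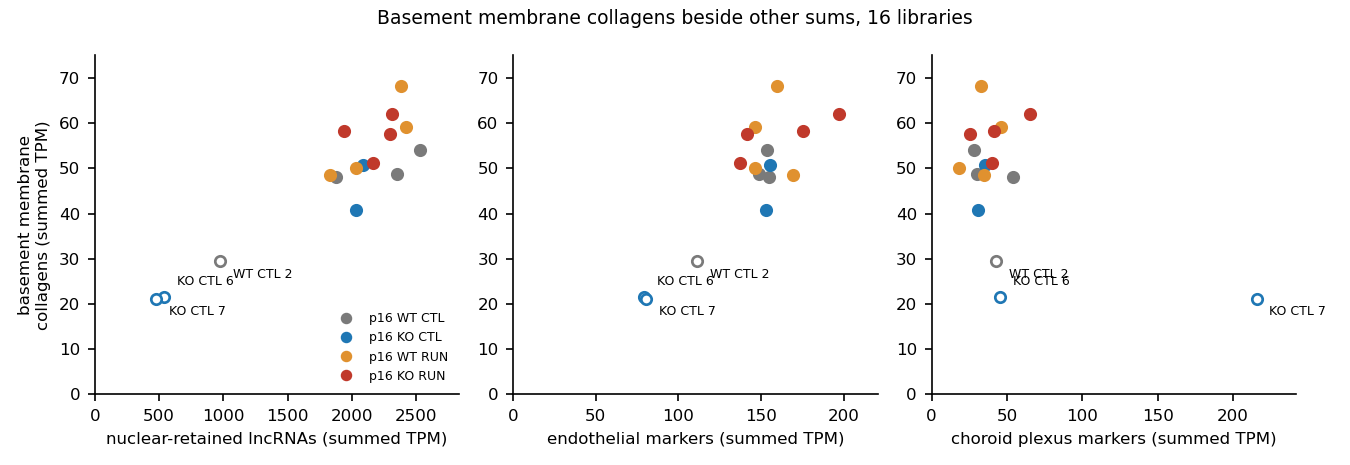
Summed TPM of the 8 basement membrane collagens (vertical axis) against the summed TPM of 7 nuclear-retained long noncoding RNAs, 10 endothelial markers and 10 choroid plexus markers, 1 point per library, coloured by group. The 3 open circles are low on the vertical axis and in the first 2 panels, the first of which shows the sum by which they were picked. Sedentary KO replicate 7 alone is far to the right in the last, mostly through Ttr.

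By group, the summed basement membrane collagens were 45.1 ± 10.8 TPM (SD, n = 4) in sedentary WT, 33.5 ± 14.7 in sedentary KO, 56.6 ± 9.11 in WT runners and 57.3 ± 4.5 in KO runners. The summed fibrillar collagens were 28.1 ± 5.19, 24.2 ± 8.82, 32.4 ± 3.69 and 34.5 ± 2.91 TPM in the same order. Both classes had their largest SD in sedentary KO, where replicates 5 and 8 had 40.8 and 50.6 TPM of basement membrane and 30.6 and 32.9 TPM of fibrillar collagens. The other types were at 103.5 ± 34.1, 100.8 ± 33.3, 98.3 ± 13.3 and 122.9 ± 32.3 TPM, with overlap between all groups. Sums are given as a description, without a test.

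**Figure D3:**
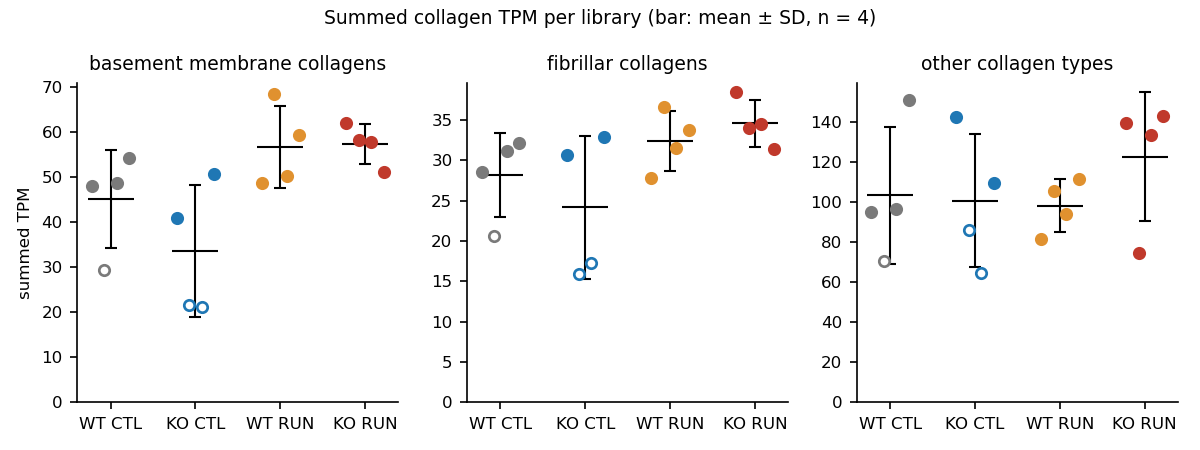
Summed TPM per library of the basement membrane, fibrillar and other collagens in the 4 groups, each axis starting at 0. Points are libraries, horizontal and vertical bars are the mean ± SD (n = 4), and the open circles are the 3 libraries low in nuclear RNA, which form the low end of both sedentary groups.

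Set A asked what running did in p16 KO mice. Of the 40 collagen genes tested, 10 (25.0%) were called higher in KO runners, where 10.7% of all genes were, and none was called lower, where 7.74% of all genes were. The 10 were Col4a1, Col4a2 and Col18a1 of the basement membrane, the fibrillar Col11a2 and Col1a1, the FACIT collagens Col16a1 and Col20a1, the transmembrane Col13a1, Col6a4 of type VI and Col7a1 of anchoring fibrils. In 7 of them all 4 KO runner libraries lay above all 4 sedentary KO libraries in TPM (Col4a1, Col4a2, Col18a1, Col11a2, Col1a1, Col20a1 and Col7a1), which holds for 7.46% of all genes, and no collagen gene lay wholly below, which holds for 2.56%. On TPM scaled between libraries, as the tests use them, 5 collagen genes lay wholly above (Col18a1, Col11a2, Col20a1, Col7a1 and Col16a1), as did 5.83% of all genes, and none wholly below, as did 4.55%. Col4a1, Col4a2 and Col1a1 overlapped on that scale, while the collagen genes without overlap in Sets B, C and E were the same on both scales. The median log2 fold change was 0.36 over the 40 collagens and 0.02 over all genes, and 33 of the 40 were above 0. No collagen gene had an adjusted p under 0.05 (limma; smallest 0.158), as was the case for all but 0.0173% of the genes tested.

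Without sedentary KO replicates 6 and 7, the median log2 fold change was -0.01 over the 40 collagens and 0.00 over all genes, and 20 of the 40 were above 0. The genes called higher were then 4 (Col4a2, Col18a1, Col11a2 and Col20a1), or 10%, where 4.90% of all genes were, and none was called lower, where 3.59% were. The summed basement membrane collagens then had a log2 ratio of 0.32 in place of 0.77, the fibrillar 0.12 in place of 0.52, and the other types -0.04 in place of 0.29.

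**Figure D4:**
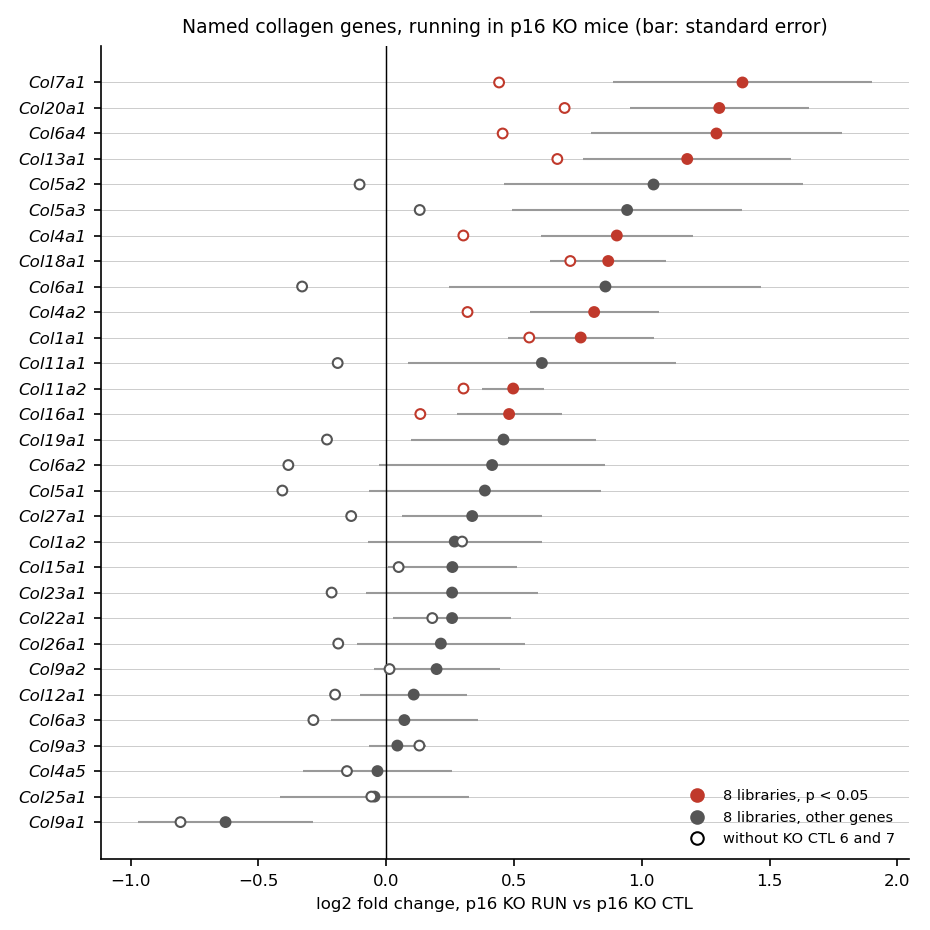
Log2 fold change of 30 collagen genes in Set A, KO runners vs sedentary KO, with the standard error as a bar. Filled circles use all 8 libraries, red where the unadjusted p is under 0.05, and open circles leave out sedentary KO replicates 6 and 7, which shifts most genes towards 0 or below it and leaves Col18a1 and Col20a1 furthest to the right.

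Among the basement membrane collagens, Col4a1 and Col4a2 encode the 2 chains of the type IV collagen found around nearly all vessels. The pair lies head to head on chromosome 8 of mm10, Col4a1 on the minus strand from 11198423 to 11312826 and Col4a2 on the plus strand from 11312829 to 11449287 in the deposited tables, so that their starts are 3 bases apart. In RefSeq (GRCm38.p6) the starts cross and the first 22 bases of both genes are the same stretch of DNA. That stretch is shown because both genes begin in it. It is part of the 5′ end of each transcript, is given on the plus strand, 5′ to 3′, at chr8:11312805-11312826, and the capitals mark a GC box (GGGCGG, searched on both strands):
Col4a1 and Col4a2 shared start: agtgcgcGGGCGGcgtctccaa

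The levels of the pair kept step in every library. Col4a1 was at 17.6, 11.5, 18.4 and 20.3 TPM in sedentary WT, at 16.2, 7.21, 7.22 and 19.6 TPM in sedentary KO, at 18.8, 28.9, 18.9 and 22.7 TPM in WT runners and at 22.7, 24.3, 22.4 and 19.9 TPM in KO runners. Col4a2 was at 24.0, 13.7, 25.2 and 28.7 TPM, at 20.2, 10.8, 10.8 and 26.2 TPM, at 24.9, 34.3, 26.7 and 31.9 TPM and at 30.7, 28.8, 30.5 and 26.8 TPM in the same order. The low values of both genes are those of sedentary WT replicate 2 and sedentary KO replicates 6 and 7. Sedentary WT replicate 4 and sedentary KO replicate 8 lay above the lowest running value of both genes (18.8 TPM for Col4a1 and 24.9 TPM for Col4a2). Sedentary KO replicate 5 lay below it in both, at 16.2 and 20.2 TPM, as did sedentary WT replicate 1, at 17.6 and 24.0 TPM. Sedentary WT replicate 3 lay below it for Col4a1 (18.4 TPM) and above it for Col4a2 (25.2 TPM). The ratio of Col4a1 to Col4a2 stayed between 0.666 and 0.845 over the 16 libraries, a 1.27-fold range, while Col4a1 itself ranged 4.00-fold. For comparison, the ratio of Col1a1 to Col1a2 had a 2.93-fold range, that of Col6a1 to Col6a2 a 2.51-fold range and that of Col9a2 to Col9a3 a 2.46-fold range.

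Col4a1 rose in Set A by 0.90 on the log2 scale (standard error 0.30, limma p = 0.0143, adjusted p = 0.211, two-sided exact permutation p = 0.0571). Col4a2 rose by 0.81 (standard error 0.25, limma p = 0.0102, adjusted p = 0.198, exact permutation p = 0.0571). Both calls held with each single library left out, but without sedentary KO replicates 6 and 7 the log2 fold changes were 0.30 and 0.32, and only Col4a2 stayed below the threshold. In Set C both were at 0.39 on the log2 scale, and neither that nor the interaction (0.51 and 0.42) passed the threshold. Without the 3 low libraries the Set C values were 0.24 and 0.18 and the interaction values 0.06 and 0.13. In Set E the log2 fold changes were 0.03 and 0.01.

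Col18a1 encodes the chain of type XVIII collagen, whose C-terminal fragment is endostatin, an inhibitor of vessel growth. It was the collagen gene whose difference in Set A moved least without the low libraries among those with a log2 fold change above 0.8. The TPM was 1.49, 1.55, 1.66 and 1.72 in sedentary WT, 1.45, 1.09, 1.28 and 1.69 in sedentary KO, 1.53, 2.29, 1.35 and 1.97 in WT runners and 4.03, 2.44, 2.20 and 2.40 in KO runners. All KO runner libraries lay above both sedentary groups, and WT runner replicate 10 lay inside the KO runner range. Col18a1 rose in Set A by 0.87 on the log2 scale (standard error 0.23, limma p = 0.00394, adjusted p = 0.164, exact permutation p = 0.0286, the smallest that 35 assignments of 8 libraries can give). With single libraries left out the value ran from 0.68 to 0.96 and stayed below the threshold in all 8 fits, and it was 0.72, still called, without the low libraries. The lowest value was that without KO runner replicate 13, which had the highest TPM.

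Col18a1 was also the only collagen gene called in Set E, where the groups share running and differ in genotype. Its log2 fold change was 0.60 (standard error 0.24, limma p = 0.0352, adjusted p = 1.00, exact permutation p = 0.0571). The call was lost without KO runner replicate 13 (0.41), KO runner replicate 14 (0.63), WT runner replicate 11 (0.48) or WT runner replicate 9 (0.53). Of all genes 2.11% were called higher and 1.76% lower in Set E, no collagen gene was called lower, and 0.00577% of all genes had an adjusted p under 0.05. No collagen gene was without overlap between the groups of Set E, where 1.21% of all genes lay wholly higher and 1.28% wholly lower.

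RefSeq gives Col18a1 2 starts, 52825 bases apart. The stretch upstream of the outer one is shown because it lies outside every exon annotated there. The gene was also the only member called in Set A, in Set E and in the interaction with all libraries. The tables sum all transcripts of the gene, so which start was used is not known. It is given on the minus strand, 5′ to 3′, at chr10:77166549-77166780 (GRCm38.p6), and ends where an annotated transcript begins. The capitals mark 3 GC boxes, which lie on the opposite strand (read here as CCGCCC):
Col18a1 upstream: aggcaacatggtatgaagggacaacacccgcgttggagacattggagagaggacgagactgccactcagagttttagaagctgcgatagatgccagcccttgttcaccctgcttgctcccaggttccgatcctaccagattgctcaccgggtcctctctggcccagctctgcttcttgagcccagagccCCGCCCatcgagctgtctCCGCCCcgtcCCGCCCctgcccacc
RefSeq promoters (250 bases before to 50 after a start) were found for 35 of the 44 collagen genes, 38 in all. A GC box (GGGCGG on either strand) was present in 60.5% of them and in 35.7% of 32851 promoters of all genes. A CCAAT box (CCAAT on either strand) was present in 34.2% and 37.4%, and TATAAA on either strand in 13.2% and 13.6%. These are matches of letters, and no binding was measured.

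Col15a1 encodes type XV collagen, close to type XVIII in structure. Its TPM was 3.28, 1.32, 2.19 and 1.73 in sedentary WT, 1.35, 0.991, 0.860 and 1.35 in sedentary KO, 2.14, 1.32, 1.65 and 1.40 in WT runners and 2.17, 1.38, 1.25 and 1.08 in KO runners. The sedentary groups overlapped only through sedentary WT replicate 2. Col15a1 fell in Set B by 0.74 on the log2 scale (standard error 0.28, limma p = 0.0264, adjusted p = 0.625, exact permutation p = 0.0571), and the call was lost without sedentary KO replicate 6 (-0.70), sedentary KO replicate 7 (-0.65), sedentary WT replicate 1 (-0.52) or sedentary WT replicate 3 (-0.71). Without the 3 low libraries the log2 fold change was -0.70, which was not called. Of the remaining type IV chains, Col4a5 had 1.01 TPM and log2 fold changes between -0.03 and -0.01 in Sets A, B, C and E, and Col4a6 (0.219 TPM), Col4a4 (0.145 TPM) and Col4a3 (0.0748 TPM) were low. These chains are the other head-to-head pairs of the family, with starts 1343 bases apart for Col4a6 and Col4a5 and 72 bases apart for Col4a4 and Col4a3.

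**Figure D5:**
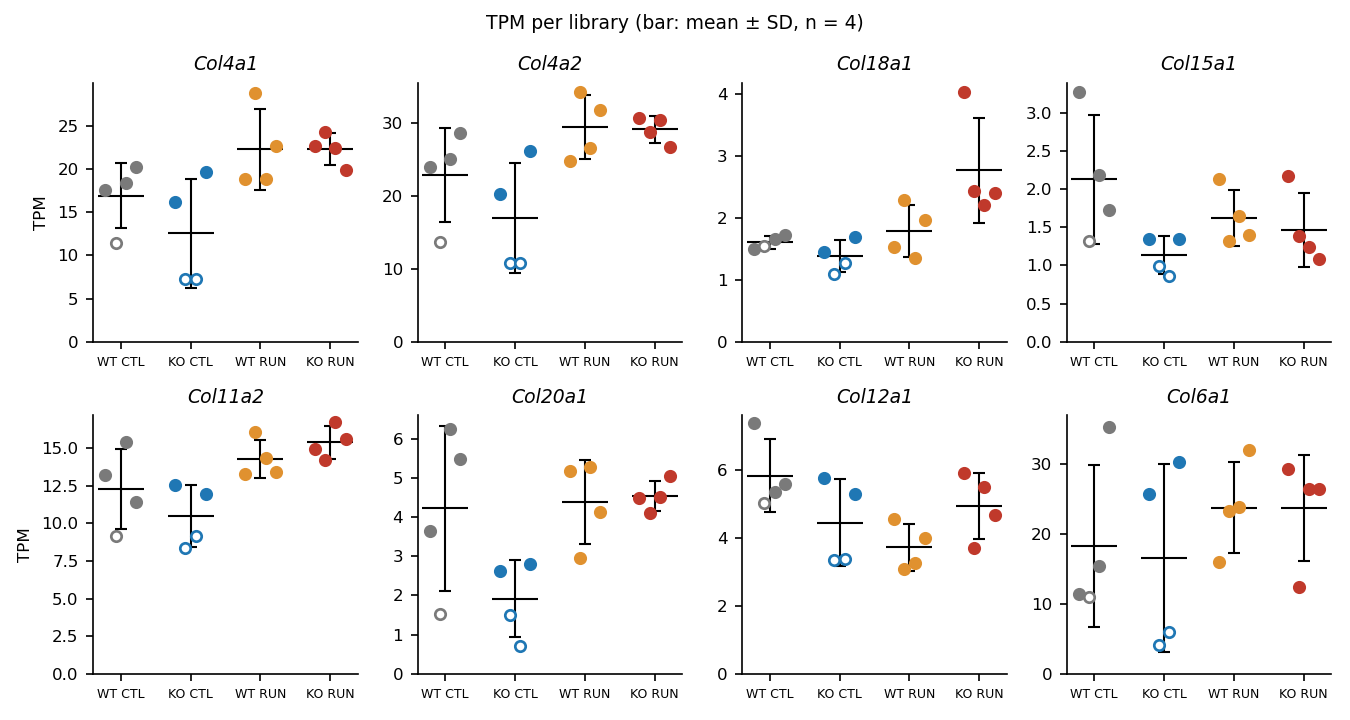
TPM per library of 8 collagen genes in the 4 groups, each axis starting at 0. Points are libraries, bars are the mean ± SD (n = 4), and open circles are sedentary WT replicate 2 and sedentary KO replicates 6 and 7. Col4a1 and Col4a2 share their pattern, Col18a1 is highest in KO runners, and Col12a1 is lower in WT runners than in sedentary WT.

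The fibrillar collagens were led by Col11a2, whose chain limits fibril diameter. Its TPM was 13.2, 9.13, 15.4 and 11.4 in sedentary WT, 12.6, 8.36, 9.16 and 11.9 in sedentary KO, 13.3, 16.1, 14.3 and 13.4 in WT runners and 14.9, 14.2, 16.8 and 15.6 in KO runners. The KO runner libraries lay above all sedentary KO libraries, with a log2 fold change of 0.50 in Set A (standard error 0.12, limma p = 0.00271, adjusted p = 0.158, exact permutation p = 0.0286). This was the smallest p of any collagen gene in Set A, and the call held with each library left out and without the low libraries (0.30). In Set C Col11a2 was at 0.22 and in the interaction at 0.27, neither called, so a difference between genotypes in its response was not shown.

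Col1a1 was at 1.21 ± 0.315 TPM (SD, n = 4) in sedentary KO and 2.27 ± 0.854 in KO runners, where replicate 13 reached 3.45 TPM. It rose in Set A by 0.76 on the log2 scale (limma p = 0.0260, adjusted p = 0.234, exact permutation p = 0.0571), a call that was lost without sedentary KO replicate 6 (0.61), KO runner replicate 13 (0.55) or KO runner replicate 14 (0.71) and without the low libraries (0.56). Its partner Col1a2 was at 1.64 ± 0.175 and 2.30 ± 1.19 TPM with a log2 fold change of 0.27, which was not called. The type V chains, which start type I fibrils, were among the genes that changed most without the low libraries. In Set A the log2 fold change of Col5a2 was 1.05 with them and -0.10 without, that of Col5a3 0.94 and 0.13, and that of Col5a1 0.39 and -0.41, none of them called. Col5a2 was at 0.589 and 0.307 TPM in sedentary KO replicates 6 and 7 and at 2.24 and 3.12 TPM in replicates 5 and 8 of the same group. Over the 10 fibrillar genes tested, all 10 had a log2 fold change above 0 in Set A, as did 53.2% of all genes, and 2 were called higher, as were 10.7% of all genes. Without sedentary KO replicates 6 and 7, 5 of the 10 were above 0 and 5 below (Col11a1, Col27a1, Col2a1, Col5a1 and Col5a2), and 1, Col11a2, was called. None was called in Sets B, C and E with all libraries.

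Col11a1, the partner chain of Col11a2, had no order by group. It was at 1.33, 1.13, 1.82 and 2.22 TPM in sedentary WT and at 3.11, 0.724, 2.17 and 5.90 TPM in sedentary KO. In WT runners it was at 1.17, 8.18, 1.19 and 7.07 TPM, and in KO runners at 3.84, 5.51, 3.81 and 2.58 TPM. Within WT runners, replicates 10 and 12 were thus several-fold above replicates 9 and 11. No set reached the threshold, but without the low libraries Col11a1 was called higher in Set B (1.28 in place of 0.61). Its highest sedentary level was that of sedentary KO replicate 8, the library lowest in granule neuron markers and 1 of the 2 left in its group there.

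Type VI collagen is built from Col6a1, Col6a2 and a further chain. The genes form clusters, Col6a1 and Col6a2 on chromosome 10 and the alternative further chains Col6a6, Col6a5 and Col6a4 side by side on chromosome 9. Col6a1 was at 11.4, 11.0, 15.4 and 35.3 TPM in sedentary WT, 25.7, 4.18, 5.92 and 30.3 TPM in sedentary KO, 16.0, 23.2, 23.9 and 32.0 TPM in WT runners and 29.3, 12.5, 26.5 and 26.4 TPM in KO runners. All groups overlapped, the range over the 16 libraries was 8.45-fold, and no set reached the threshold. In Set A its log2 fold change was 0.86 with all libraries and -0.33 without sedentary KO replicates 6 and 7. Col6a2 ran from 1.45 TPM in sedentary KO replicate 6 to 7.61 TPM in sedentary WT replicate 4.

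Col6a4, an alternative further chain, was at 1.56, 0.797, 2.45 and 4.43 TPM in sedentary WT, 1.91, 0.307, 0.395 and 1.03 TPM in sedentary KO, 2.97, 0.907, 0.873 and 1.08 TPM in WT runners and 2.51, 1.33, 2.93 and 1.58 TPM in KO runners. It was called higher in Set A (log2 fold change 1.29, standard error 0.49, limma p = 0.0274, adjusted p = 0.238, exact permutation p = 0.0857), although sedentary KO replicate 5 overlapped with KO runners. The call was lost without sedentary KO replicate 6 (0.96), sedentary KO replicate 7 (1.07), KO runner replicate 13 (1.19) or KO runner replicate 15 (1.11), and without the low libraries the value was 0.46. Col6a3, the usual partner of Col6a1 and Col6a2, was at 0.963 ± 0.115 TPM (SD, n = 4) in sedentary WT and 0.589 ± 0.234 in sedentary KO. It was called lower in Set B (log2 fold change -0.64, limma p = 0.0492, adjusted p = 0.625, exact permutation p = 0.0571), a call that was kept in 1 of 8 fits with a library left out, that without sedentary KO replicate 8. The values without each of the other 7 libraries ran from -0.69 to -0.43, and that without the low libraries was -0.34, which was not called.

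Among the FACIT collagens, Col20a1 had the largest separation in Set A. Its TPM was 3.64, 1.54, 6.24 and 5.47 in sedentary WT, 2.63, 1.51, 0.717 and 2.80 in sedentary KO, 5.17, 2.97, 5.27 and 4.12 in WT runners and 4.48, 4.11, 4.52 and 5.04 in KO runners. Every sedentary KO library lay below every running library of both genotypes, and sedentary WT replicate 2 lay among them. Col20a1 rose in Set A by 1.3 on the log2 scale (standard error 0.35, limma p = 0.00471, adjusted p = 0.167, exact permutation p = 0.0286), held in all 8 fits with a library left out, and was at 0.70, still called, without the low libraries. In Set B it was at -1.04, and with all libraries neither this nor the interaction was called. Without the low libraries Col20a1 was called in both, at -0.82 in Set B and 0.91 in the interaction. Col16a1 rose in Set A by 0.48 (standard error 0.21, limma p = 0.0436, adjusted p = 0.263, exact permutation p = 0.0286), but the call was kept only without sedentary KO replicate 5 or replicate 8. It ran from 0.32 to 0.51 without each of the other 6 libraries and was 0.13 without both low libraries.

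Col12a1, a FACIT collagen of type I fibrils, was the only collagen gene called in Set C. Its TPM was 7.40, 5.02, 5.35 and 5.59 in sedentary WT, 5.77, 3.34, 3.38 and 5.31 in sedentary KO, 4.56, 3.08, 3.26 and 4.01 in WT runners and 5.90, 3.69, 5.51 and 4.69 in KO runners. All WT runner libraries lay below all sedentary WT libraries, and it fell in Set C by 0.65 on the log2 scale (standard error 0.17, limma p = 0.00447, adjusted p = 0.937, exact permutation p = 0.0286). The call held in all 8 fits with a library left out, from -0.74 to -0.53, and without sedentary WT replicate 2 it was -0.69. Set A gave 0.11, which was not called, and the interaction was called at 0.76 (standard error 0.28, limma adjusted p = 0.797). The interaction held with each of the 16 libraries left out and was 0.49, not called, without the 3 low libraries. Set E, at 0.40, was not called (limma p = 0.0511, exact permutation p = 0.114).

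Of the other FACIT collagens, Col9a3 was the steadiest collagen above 1 TPM, with a 1.59-fold range around 8.44 TPM, and Col9a1, a chain of the same type IX molecule, was at 0.135 TPM, with 1 library at 0. Col9a1 was called higher in Set B (0.0637 ± 0.0712 TPM in sedentary WT, 0.209 ± 0.0778 in sedentary KO, SD, n = 4; limma p = 0.0345, adjusted p = 0.625, exact permutation p = 0.0571). With a pseudocount of 1 TPM its log2 fold change there was 0.19, not called, in place of 1.01, and the call was lost without sedentary KO replicates 5 (1.01), 6 (0.95) or 8 (0.90) and without sedentary WT replicates 2 (0.90) or 3 (0.81). Without the 3 low libraries the value was 1.08, which was not called. Col19a1, made by scattered hippocampal neurons, was at 2.65 and 2.52 TPM in sedentary KO replicates 6 and 7, at 4.16 TPM in sedentary WT replicate 2 and at 4.95 to 8.39 TPM elsewhere. It reached the threshold in no set. Col22a1 had 1.44 TPM, with log2 fold changes between -0.34 and 0.26 in Sets A, B, C and E and no call.

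Among the transmembrane collagens, Col25a1 was at 34.6, 23.1, 26.8 and 52.0 TPM in sedentary WT, 58.8, 51.7, 28.7 and 29.6 TPM in sedentary KO, 16.3, 37.9, 19.9 and 26.0 TPM in WT runners and 49.0, 18.4, 50.1 and 60.4 TPM in KO runners. Groups overlapped in every set, and none reached the threshold, with the largest log2 fold change 0.78, in Set E. Col23a1 was at 9.58 TPM in sedentary WT replicate 4 against 4.79 to 5.08 TPM in the rest of that group, and at 3.82 TPM in KO runner replicate 14 against 7.55 to 8.22 TPM. The same pair of libraries was the highest and the lowest of its group in Col25a1. Col13a1, a collagen of the neuromuscular junction, was at 0.634 ± 0.436 TPM (SD, n = 4) in sedentary KO and 1.53 ± 0.617 in KO runners. It rose in Set A by 1.18 on the log2 scale (standard error 0.41, limma p = 0.0174, adjusted p = 0.217, exact permutation p = 0.0857). It was at 0.97 without KO runner replicate 16 and at 0.67 without the low libraries, neither of them called.

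Among the remaining types, Col7a1 was at 0.565, 0.0711, 0.0808 and 0.586 TPM in sedentary KO and at 0.662, 0.834, 0.828 and 1.02 TPM in KO runners. In sedentary WT it was at 0.606, 0.196, 1.08 and 1.04 TPM, with the low value again in replicate 2. It rose in Set A by 1.39 on the log2 scale (standard error 0.51, limma p = 0.0222, adjusted p = 0.229, exact permutation p = 0.0286), the largest of the 10 calls, and was at 1.06 without sedentary KO replicate 6, 1.09 without replicate 7 and 1.31 without KO runner replicate 16, each above the threshold. Without both low libraries it was 0.44, also not called. Col26a1 (1.19 TPM) and Col27a1 (1.77 TPM, fibrillar) were not called in any set. Col8a2, Col8a1, Col14a1, Col28a1, Col6a5, Col6a6 and Col2a1 had means of 0.137 to 0.738 TPM and no call.

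Sets B and C, the effects of genotype at rest and of running in the wild type, held few calls. In Set B 1 of 40 collagen genes was called higher (Col9a1) and 2 lower (Col15a1 and Col6a3), where 3.15% of all genes were called higher and 3.54% lower. No collagen gene was without overlap in Set B (1.03% of all genes lay wholly higher and 1.78% wholly lower). The median was -0.33 over the collagens and -0.01 over all genes, and -0.01 and 0.00 without the low libraries. None of the 3 calls of Set B was kept without the low libraries, where Col11a1 was called higher and Col20a1 lower (sedentary KO then being replicates 5 and 8), with 3.19% of all genes called higher and 3.48% lower. In Set C none was called higher and 1 lower (Col12a1), where 2.69% and 2.13% of all genes were. Col12a1 and Col4a6 lay wholly lower in WT runners, as did 1.11% of all genes, and none wholly higher, as did 2.23%. Without sedentary WT replicate 2, Col5a1 was also called lower in Set C, so that 2 of 40 (5%) were lower and none higher, where 2.91% of all genes were called lower and 2.97% higher. The median log2 fold change in Set C was 0.05 over the collagens with all libraries and -0.03 without that one, where it was 0.00 over all genes. In both Sets B and C 0% of all genes had an adjusted p under 0.05.

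The interaction, which asks whether running acted differently in the genotypes, was called above 0 for Col12a1, Col18a1 and Col6a4 and below 0 for Col9a1, that is 3 and 1 of 40 genes, where 2.95% and 2.54% of all genes were called. The log2 values were 0.76 for Col18a1 (standard error 0.30), 1.87 for Col6a4 (standard error 0.76) and -1.36 for Col9a1 (standard error 0.53), each with a limma adjusted p of 0.797, and no gene (0%) had an adjusted p under 0.05. Col18a1 lost the call without KO runner replicate 13 (0.58) or WT runner replicate 11 (0.64), and Col6a4 without any of 6 libraries (1.5 to 1.73), these being sedentary KO replicates 6 and 7, KO runner replicate 15, sedentary WT replicate 4 and WT runner replicates 10 and 11. Without the 3 low libraries Col18a1 was at 0.60 and Col6a4 at 1.41, neither called, and the genes called were Col20a1 (0.91) and Col9a1 (-1.42), 1 of 40 (2.5%) on each side, where 3.75% of all genes were called above 0 and 3.49% below.

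The enzymes that build, modify and process collagen are given next. Of 30 genes of collagen synthesis and processing, 4 were called higher and 1 lower in Set A, where 10.7% and 7.74% of all genes were, with a median log2 fold change of 0.08. In Set B 1 was called higher and 1 lower, where 3.15% and 3.54% of all genes were, in Set C 1 higher, where 2.69% were, and in Set E none. Loxl1, which cross-links elastin and collagen, was at 7.75 ± 0.277 TPM (SD, n = 4) in sedentary KO and 10.8 ± 1.22 in KO runners (limma p = 0.00483, exact permutation p = 0.0286). Bmp1, the procollagen C-proteinase, was at 38.1 ± 20.8 and 69.3 ± 11.7 TPM (limma adjusted p = 0.211), and Adamts2, an N-proteinase, fell from 1.90 ± 0.827 to 0.959 ± 0.331 TPM (adjusted p = 0.238). In Set B Plod1, a lysyl hydroxylase, rose from 13.6 ± 0.501 to 15.9 ± 0.191 TPM, and Pxdn, the peroxidase that cross-links type IV collagen, fell from 53.6 ± 10.0 to 28.6 ± 14.9 TPM (limma adjusted p = 0.625 for both). Lox, called in Set C, had 0.122 TPM. Without the low libraries Loxl1 alone was called in Set A (0.46), with Bmp1 at 0.35 and Adamts2 at -0.89, the calls of Plod1 (0.27) and Pxdn (-0.47) in Set B and of Lox in Set C were kept, and Serpinh1, the collagen chaperone HSP47, was also called higher in Set C. The interaction was called below 0 for Adamts2 with all libraries (-1.37, limma adjusted p = 0.797) and without the low ones (-1.65), and above 0 for Bmp1 only without them (0.62).

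Of 16 collagen receptors and degrading enzymes, 15 were tested, and 3 were called higher and 1 lower in Set A, where 10.7% and 7.74% of all genes were. Itga10 and Itga11, integrin chains that bind collagen, rose from 0.504 ± 0.378 to 1.27 ± 0.418 TPM and from 3.67 ± 1.5 to 5.92 ± 0.933 TPM (SD, n = 4; limma adjusted p = 0.218 and 0.231). Mrc2, an endocytic collagen receptor, rose to 2.32 ± 0.720 TPM from at most 1.42 TPM in sedentary KO (limma adjusted p = 0.219). The member called lower, named after its value was seen, was Mmp9, a gelatinase, at 1.55 ± 0.228 and 1.14 ± 0.199 TPM. In Set B Itga10 was called lower, from 1.37 ± 0.477 to 0.504 ± 0.378 TPM, where 3.54% of all genes were. In Set C Ddr1, a collagen receptor kinase, rose from 48.9 ± 4.47 to 57.7 ± 4.32 TPM, where 2.69% of all genes were called higher. Set E held no call. Without the low libraries no gene of this list was called in Set A (Itga10 0.62, Itga11 0.45, Mrc2 0.62 and Mmp9 -0.55 on the log2 scale) or in Set B, and Ddr1 was called in Set C. The interaction was called above 0 for Itga10 with all libraries (1.39, limma adjusted p = 0.797), and for no gene of the list without the low ones.

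The other genes of the basement membrane (laminins, nidogens, perlecan and agrin) had a median log2 fold change of 0.38 in Set A, with 3 of 15 called higher and none lower, where 10.7% and 7.74% of all genes were. Without the low libraries the median was 0.15, and of the 3 only Agrn was called (0.19), with Lamc1 at 0.26 and Lama5 at 0.28. Agrn was at 47.6 ± 14.7 TPM (SD, n = 4) in sedentary KO and 70.0 ± 3.38 in KO runners (limma adjusted p = 0.203), Lamc1 at 13.9 ± 2.96 and 18.6 ± 1.54 TPM (adjusted p = 0.212) and Lama5 at 2.01 ± 0.839 and 3.21 ± 0.491 TPM (adjusted p = 0.239). Their sum was 116 TPM in sedentary WT replicate 2 and 101 and 94.4 TPM in sedentary KO replicates 6 and 7, against 134.5 to 163 TPM in the other 13 libraries, the same libraries that were low in Col4a1 and Col4a2. Set C held 1 call of 15, the lower Lamb3, where 2.13% of all genes were called lower, and Sets B and E none. Agrn and Lamb3 were called lower in Set B without the low libraries, where 3.48% of all genes were, Lamb3 lower in Set C, where 2.91% were, and Agrn above 0 in the interaction, where 3.75% were. None of these genes, nor of the other lists, had an adjusted p under 0.05.

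Markers of other cells are given with their calls in each set, where the shares of all genes called are those above. In Set A 2 of 10 endothelial markers were called higher (Pecam1 and Tek), with a median of 0.49 and none at 0 in any library, and without the low libraries none was called and the median was 0.08. Their sum ran from 112 to 155 TPM in sedentary WT, 79.4 to 155 in sedentary KO, 146 to 169.5 in WT runners and 137 to 197 in KO runners. Of 7 nuclear-retained long noncoding RNAs, Malat1 was called higher in Set A, and the median was 0.99. Without the low libraries that median was -0.11, with Malat1 called higher and Neat1 lower. Of 10 mural cell markers Tagln was called higher in Set A (sums of 79.9 to 142 TPM over all libraries), and of 10 markers of meninges and fibroblasts Bgn higher and Ogn lower (73.1 to 127 TPM). Tagln (0.50) and Ogn (-0.41) were not called in Set A without the low libraries, while Bgn was still higher (0.51), and Rgs5 and Dcn were called lower and Igf2 higher. In the other sets the calls of these lists were then Vtn, Bgn and Dcn higher in Set B, Slc6a13 higher in Set C, and Rgs5 and Dcn below 0 in the interaction. Of 9 choroid plexus markers tested Prlr was called higher in Sets A and C, with and without the low libraries, while the listed Folr1, Slc4a5, Otx2, Clic6 and Kcne2 were at 0 in 5, 4, 3, 1 and 1 libraries.

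In Set E, where Col18a1 was called, Pecam1 of the endothelial markers, Folr1 of the choroid plexus markers and Gpr17 of the 6 oligodendrocyte precursor markers were called higher. There 2 of 5 markers of thalamus and habenula were also called higher (Tcf7l2 and Calb2), and the mural marker Rgs5 and 2 of 8 markers of CA1 to CA3 pyramidal neurons were called lower (Fibcd1 and Rgs14). In Set B 4 of 6 oligodendrocyte precursor markers (among them Olig2, Gpr17 and Sox10), 2 of 7 GABAergic interneuron markers (Pvalb and Vip), 2 of 8 CA markers (Pou3f1 and Rgs14) and Rora of the thalamus list were called higher. In Set A Sox10, Pvalb, Pou3f1, Rgs14 and Rora were called lower and Vip higher, and in Set C Rgs5, Gad1 and Fibcd1 were called higher. The interaction was called below 0 for 3 of 8 CA markers (Fibcd1, Pou3f1 and Rgs14), Sox10, Pvalb and Rora. Without the low libraries no marker of oligodendrocyte precursors, GABAergic interneurons or thalamus and habenula was called in Set B, but their log2 fold changes stayed above 0. Gpr17 was at 0.52, Olig2 at 0.31, Sox10 at 0.39, Pvalb at 0.51, Vip at 0.46 and Rora at 0.16. All tested markers of the 3 lists were above 0 there, with medians of 0.27, 0.28 and 0.16, where with all libraries the medians were 0.32, 0.15 and 0.21. In Set A Vip was then the only call of these lists, with Sox10 at -0.25, Pvalb at -0.32 and Rora at -0.21 on the log2 scale, and in Set C Gad1 was called and Rgs5 (0.26) was not. In the interaction Sox10, Pvalb, Slc32a1 and Sst were then called below 0, and Rora was not. Of the CA markers Fibcd1, Pou3f1 and Rgs14 were then called lower in Set A and in the interaction and higher in Set B, and Fibcd1 higher in Set C. The dentate granule neuron markers, which define the tissue, had no call in any set with all libraries and sums of 586 to 1544 TPM, and without the low libraries C1ql2 was called lower in Set B and Prox1 above 0 in the interaction. All 6 granule markers were then below 0 in Set B (median -0.61) and above 0 in the interaction (median 0.61), with sedentary KO replicates 5 and 8 at 1201 and 586 TPM in their sum. The part of these differences in the collagen results was not tested.

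Col4a3bp, matched by name alone, was steady, at 33.3 to 47.8 TPM over the 16 libraries, a 1.44-fold range around a mean of 39.5 TPM. The knocked-out gene was no check of genotype here: Cdkn2a, whose row also holds p19Arf, reached 0.586 TPM in sedentary WT and 0.344 TPM in sedentary KO. Coverage per gene was at hand but read counts were not, so that the counting error of low genes such as Col9a1 is not known. The coverage of a library relative to the mean library ran from 0.621 to 1.95. The highest coverage was in sedentary WT replicate 2 (1.95) and sedentary KO replicate 7 (1.68), both among the libraries low in nuclear RNA. Sedentary KO replicate 6, also low in nuclear RNA, was at 1.02. The part of coverage in the collagen results was not tested.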

How the data were processed

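RNA-seq was made from the dentate gyrus in 16 libraries, 4 per group, each of 2 pooled mice. Per the submitters' processing notes and the methods, reads were demultiplexed with bcl2fastq 2.20, masked for adapters with cutadapt 1.11, trimmed with ERNE and aligned with STAR to mm10 (library type fr-secondstrand). The authors computed TPM, FPKM and coverage with StringTie, and these tables were deposited; deposited FPKM was used for an alternative only, and the deposited coverage signal for relative depth only. The study's own comparisons used htseq-count and DESeq2 on counts that are not analysed here, so limma on TPM replaces them.

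TPM of rows sharing a gene name were summed, and libraries were scaled by their median ratio to the average library, taken over the 13226 genes at or above 1 TPM throughout. Genes averaging 0.1 TPM or more (17317) went into limma 3.58.1 (R 4.3.3, variance trend, Benjamini-Hochberg) on log2 (scaled TPM + 0.1), with the 8 libraries of each set, or all 16 for the interaction. Fold changes are on that scale and understate low genes. Printed levels, sums and overlaps use TPM as deposited. Exact two-sided permutation tests cover 35 assignments, with 0.0286 the smallest p. The p-values measure the spread between libraries of pooled mice.

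Genes named are collagens averaging 1 TPM or more or with an unadjusted p under 0.05 in Set A, B, C, E or the interaction, and at most 3 genes of smallest p per other list, set and choice of libraries, with Mmp9 and the choroid plexus markers at 0 added after their values were seen; low collagens are named for completeness. Members, lists and tests were chosen with earlier results of these data known. On simulated data for Set A, 97% of 100 genes changed by 1 on the log2 scale were recovered at an unadjusted p under 0.05, against 5.09% of unchanged genes. The changed genes were drawn from those averaging 1 TPM or more, with normal noise of each gene's SD pooled over the 4 groups. The share therefore need not hold for collagens under 1 TPM or of wide spread, such as Col5a2 (1.05 in Set A, not called). Alternatives were other filters, pseudocounts, scalings, FPKM, the highest row per name, no variance trend, 1 fit of all libraries and leaving libraries out. Promoter sequences are RefSeq's (GRCm38.p6). Set D, which sets knockout runners against sedentary wild-type mice, was not analysed here.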

Additional observations from a re-analysis of the deposited data

Results flagged for a closer look

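In 132 groups of 4 libraries (the 30 named collagen genes and the class sums, by group), a library lay far from the other 3 by Dixon's criterion in 10, where chance alone gives about 1 in 20 groups. These genes were named in part by an unadjusted p under 0.05 in the same data. Replicate 13 of p16 KO RUN was the high one for Col16a1 (6.11 TPM, others 4.98 to 5.16) and Col18a1 (4.03 TPM, others 2.20 to 2.44). Replicate 4 of p16 WT CTL was the high one for Col23a1 (9.58 TPM, others 4.79 to 5.08), Col5a2 (3.52 TPM, others 1.43 to 1.60) and Col6a2 (7.61 TPM, others 2.41 to 3.1). Replicate 14 of p16 KO RUN was the low one for Col23a1 (3.82 TPM, others 7.55 to 8.22) and for the summed other collagen types (74.9 TPM, others 133.6 to 143). Single cases were Col22a1 in p16 KO CTL replicate 5 (1.51 TPM), Col26a1 in p16 WT RUN replicate 11 (1.56 TPM) and Col6a4 in p16 WT RUN replicate 9 (2.97 TPM, others 0.873 to 1.08).

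The interaction of genotype and running had an unadjusted p under 0.05 above 0 in 3 of 40 collagen genes, Col12a1 (0.76 on the log2 scale), Col18a1 (0.76) and Col6a4 (1.87), and below 0 in 1, Col9a1 (-1.36), where 2.95% and 2.54% of all genes had one. None had an adjusted p under 0.05 in limma. Without the libraries low in nuclear RNA only Col9a1 of the 4 stayed below the threshold (-1.42). Col12a1 was then at 0.49, Col18a1 at 0.60 and Col6a4 at 1.41 on the log2 scale, none of them called. As no adjusted p passed, a difference between genotypes in the response was not shown for any of the 4.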

How the results depend on the processing

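Of all genes tested, Set A called 18.5% in either direction, Set B 6.69%, Set C 4.81%, Set E 3.87% and the interaction 5.48%, and the percentages given here are those of all genes called under the same alternative. The 10 collagen genes called in Set A were 4 without the libraries low in nuclear RNA (8.49%), an alternative chosen after seeing the data, and 6 to 13 with a library left out (6 without p16 KO CTL replicate 6, 11.9%, against 13 with p16 KO CTL replicate 8 left out, 21%). The 3 calls of Set B were 6 with all 16 libraries in one fit (12.7%) and 1 with a mean of at least 1 TPM (6.44%), where fewer genes are tested. With a library left out they were 0 to 6 (0 without p16 WT CTL replicate 3, 4.11%, 1 without p16 KO CTL replicate 6, p16 KO CTL replicate 7 or p16 WT CTL replicate 1, 3.22% to 3.96%, and 6 without p16 KO CTL replicate 8, 9.6%). The 1 call of Set C was 2 without a variance trend (4.68%) and 2 without the library low in nuclear RNA (5.88%), and 1 to 5 with a library left out (5 without p16 WT CTL replicate 4, 5.31%, and 2 without p16 WT CTL replicates 2 or 3 or p16 WT RUN replicates 9, 10 or 11, 3.07% to 5.88%). The 1 call of Set E was 2 with FPKM (3.78%), 2 with all 16 libraries (3%) and 2 with a mean of at least 1 TPM (3.55%), and 0 to 3 with a library left out (0 without p16 KO RUN replicate 13 or p16 WT RUN replicate 11, 3.99% and 3.42%, 2 without p16 WT RUN replicate 9, 2.81%, and 3 without p16 KO RUN replicate 14 or p16 WT RUN replicate 10, 3.87% and 4.43%). The 4 calls of the interaction were 2 without the libraries low in nuclear RNA (7.25%) and 2 to 10 with a library left out (2 without p16 WT RUN replicate 11, 6%, and 10 without p16 KO CTL replicate 8, 7.85%). The causes of these shifts were not tested. The Set E calls made without p16 KO RUN replicate 14 or p16 WT RUN replicate 9 did not include Col18a1. No setting gave a collagen gene an adjusted p under 0.05. Of 382 recomputed log2 fold changes of called collagen genes, 320 kept their direction and side of the threshold, 62 fell short of it, and none turned. No paired analysis was possible because the groups share no replicate numbers. Without read counts, the precision of the genes under 1 TPM is not known.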
